A study of Mus musculus with 8 samples.

Results

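The 9 genes described here encode factors that brown fat secretes and receptors that read such factors: the ligand Nrg4 with the receptors Erbb3 and Erbb4, the ligand Fgf21 with its coreceptor Klb and the receptor Fgfr1, and the secreted proteins Bmp8b, Gdf15 and Slit2. They were taken by gene symbol from the 41388 genes counted in every library, and each symbol matched 1 gene. All 9 had enough counts to be tested among 16705 genes. Gene counts came from brown adipose tissue of 8 C57BL/6J mice, which had regular chow and room temperature, after removal of rRNA from the total RNA. In 4 mice, called ANKO, floxed Nampt alleles were combined with an adiponectin-Cre transgene, which is active in adipocytes, and the other 4 mice, called WT, were labelled wild type with flox/flox alleles. The age of the mice is not given in the sources used here. Nampt encodes the enzyme that starts NAD+ salvage from nicotinamide, and its mean level in ANKO was 14.2% of that in WT (508 ± 42.2 against 72.3 ± 4.67 CPM, SD, n = 4 each).

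Brown fat sends signals to itself and to other organs. Neuregulin 4 binds ERBB4, which can pair with ERBB3, a receptor whose own kinase is impaired. FGF21 signals through FGF receptors, mainly FGFR1 in adipose tissue, and needs β-klotho (KLB) as coreceptor. BMP8B is a ligand of the BMP family that raises the thermogenic response of brown fat, GDF15 is a stress-induced ligand whose receptor GFRAL sits in the hindbrain, and SLIT2 is a guidance ligand of ROBO receptors of which adipose tissue releases a cleaved fragment.

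Total counts ran from 21771276 to 49697156 in WT and from 5738067 to 26426476 in ANKO, so that 3 counts correspond to 0.0683 to 0.149 scaled CPM in WT and 0.115 to 0.437 scaled CPM in ANKO, for counting error only. The share of rRNA was 2.83% to 3.53% of counts in WT and 0.801% to 1.13% in ANKO, and the mitochondrial share of the other counts was 7.15% to 7.56% and 2.22% to 3.11%; their part in the results was not tested. CPM below are the counts divided by the scaled library size, as the deposited CPM are by the total. The brown fat markers were read in every library (Ucp1 at 317 to 8829 CPM). The 12 skeletal muscle markers summed to 31.6 to 2736 CPM in WT and to 10211 to 14737 CPM in ANKO, and within WT they were lowest in WT3 and WT4. By the call defined in the next paragraph, 27.6% of all genes tested were lower in ANKO and 30.6% higher. Of the 12 general adipocyte markers 11 were called lower in ANKO (summed 22656 to 29515 against 11180 to 15103 CPM). Of the 12 brown adipocyte markers 10 were called lower (9575 to 17750 against 1881 to 4973 CPM). Of the 12 macrophage markers 11 were called higher (130 to 176 against 1182 to 2126 CPM). So were 10 of 12 fibroblast and progenitor markers (903 to 1240 against 3530 to 6351 CPM). No marker was at 0 in all libraries. In bulk tissue, fewer cells of a type and less RNA per cell cannot be told apart.

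Nrg4, its receptor Erbb4 and, by a small margin, Klb fell, while Erbb3 rose. The secreted factors Fgf21, Gdf15 and Slit2 rose from low WT levels. A gene was called when its adjusted p in edgeR's quasi-likelihood test was under 0.05. Of the 9 genes 7 were called, beside 58.2% of all genes tested. They comprised 4 higher (beside 30.6% of all genes) and 3 lower (beside 27.6%). A called change of at least 2-fold was seen in 6 genes, beside 28.7% of all genes. In 6 genes the WT and ANKO libraries did not overlap, beside 55.0% of all genes. Fgfr1 and Bmp8b were not called.

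**Figure D1:**
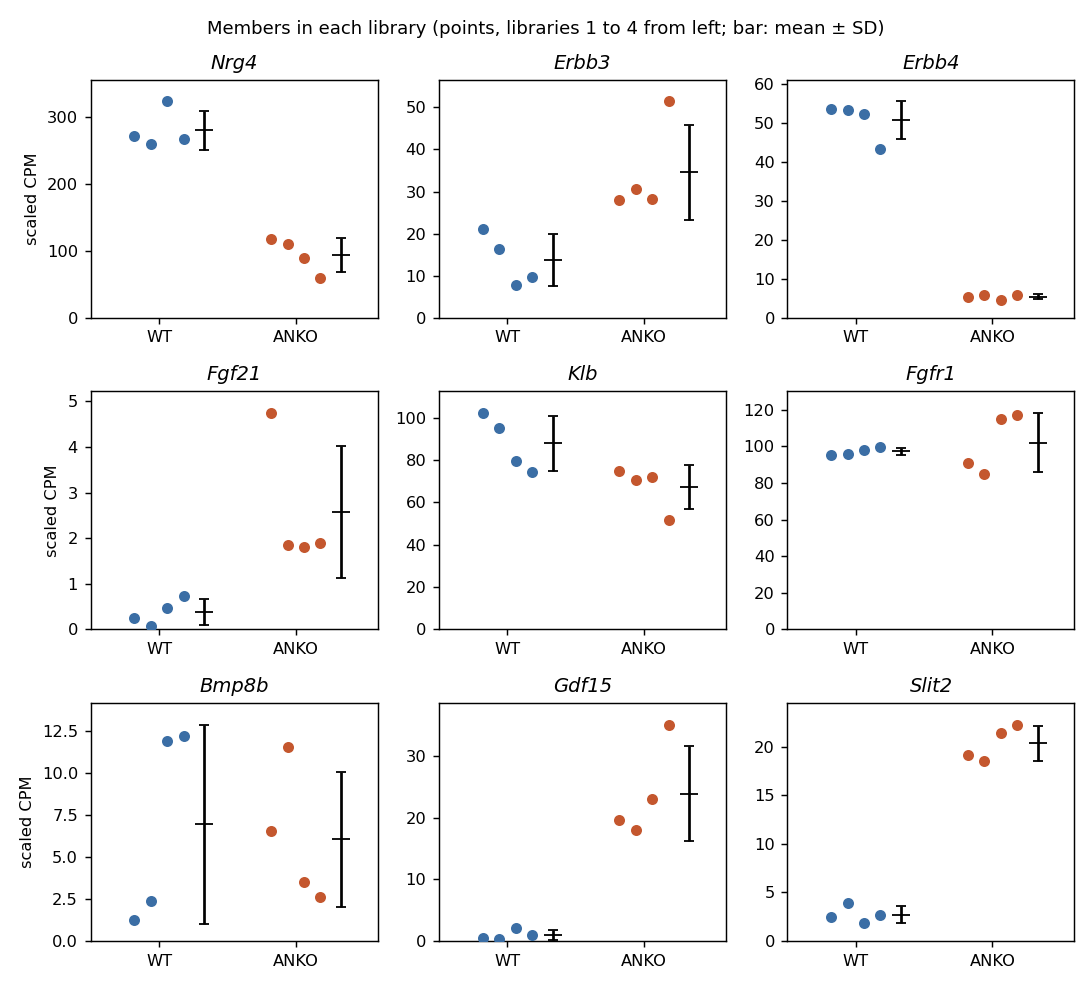
Scaled CPM (vertical axes, each starting at 0) of the 9 genes in the 4 WT and 4 ANKO libraries; points are libraries 1 to 4 from left to right and bars are the mean ± SD. Nrg4, Erbb3, Erbb4, Fgf21, Gdf15 and Slit2 have no overlap between the groups, and the WT libraries of Bmp8b fall apart into a low and a high pair.

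Nrg4 (ENSMUSG00000032311, GRCm38 chromosome 9, 55220222 to 55326844, minus strand) was the most abundant of the 9 per kilobase in WT. It stood at 272, 260, 324 and 267 CPM in WT1 to WT4 and at 117, 110, 89.6 and 59.9 CPM in ANKO1 to ANKO4. Every ANKO library was below every WT library, and ANKO4 was the lowest. Group means were 281 ± 29.2 and 94.1 ± 25.6 CPM (SD, n = 4 each). This was a 2.98-fold fall (log2 fold change -1.57 with a standard error of 0.19, adjusted p = 8.00e-05 by edgeR). Permuting the log2 CPM exactly, two-sided, gave p = 0.0286, the smallest that 4 against 4 libraries allow. Over the 12 general adipocyte markers the median log2 fold change was -0.89 and over the 12 brown adipocyte markers -1.39, and the part of adipocyte content in the fall of Nrg4 was not tested. Of the exons of Nrg4, 769 bases overlap those of Fbxo22 on the opposite strand, which itself fell from 69.4 to 43.2 CPM, and reads from this stretch may not be told apart.

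Erbb4 (ENSMUSG00000062209, chromosome 1, 68032186 to 69108059, minus strand), the receptor tyrosine kinase that neuregulin 4 binds, had the largest fall of the 9. Its levels were 53.5, 53.4, 52.3 and 43.4 CPM in WT1 to WT4 and 5.40, 5.76, 4.45 and 5.83 CPM in ANKO1 to ANKO4. The 2 groups lay far apart and each was tight, with a coefficient of variation of 9.59% in WT and 11.9% in ANKO. Erbb4 fell 9.48-fold to 10.6% of its WT level (log2 fold change -3.25 with a standard error of 0.12, adjusted p = 1.13e-07 by edgeR, exact permutation p = 0.0286). That log2 fold change lay between -3.45 and -3.07 in all 22 alternative analyses.

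Erbb3 (ENSMUSG00000018166, chromosome 10, 128567523 to 128589652, minus strand) moved the other way. It was read at 21.0, 16.3, 7.78 and 9.65 CPM in WT1 to WT4 and at 28.01, 30.7, 28.3 and 51.4 CPM in ANKO1 to ANKO4. The groups did not overlap, ANKO4 was the highest library, and WT1 and WT2 were above WT3 and WT4. The rise was 2.53-fold (log2 fold change 1.34 with a standard error of 0.34, adjusted p = 0.00797 by edgeR, exact permutation p = 0.0286). The same pairs of WT libraries differed in muscle RNA: the muscle markers summed to 939 and 2736 CPM in WT1 and WT2 and to 116 and 31.6 CPM in WT3 and WT4. Within each pair the order differed: WT2 had more muscle RNA than WT1 but less Erbb3, and WT3 more than WT4 but less Erbb3. ANKO3 and ANKO4 had muscle sums of 14737 and 14376 CPM, with Erbb3 at 28.3 and 51.4 CPM. A covariate for muscle marker level followed genotype (Pearson r = 0.837 over the 8 libraries). With it the log2 fold change of Erbb3 was 0.36 with a standard error of 0.45 (adjusted p = 0.602 by edgeR), and the call was lost. Because the covariate followed genotype, that fit cannot tell muscle RNA and genotype apart. The part of muscle RNA in the rise of Erbb3 was not tested. The fold was 3.84 without WT1 and WT2 and 1.82 without WT3 and WT4 (adjusted p = 0.0246 by edgeR).

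Schwann cells, the glia of peripheral nerves, depend on ERBB3. Of 12 Schwann cell markers 8 were called higher (beside 30.6% of all genes) and 0 lower. The share called was 66.7%, near the 58.2% of all genes. Their median log2 fold change was 0.67, and they summed to 143 to 165 CPM in WT and 174 to 254 CPM in ANKO. The transcription factor Sox10 was at 3.76, 3.496, 1.74 and 2.59 CPM in WT1 to WT4 and at 8.30, 9.91, 9.46 and 27.8 CPM in ANKO1 to ANKO4, highest in ANKO4 like Erbb3. The part of nerve content in the rise of Erbb3 was not tested.

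In whole-tissue RNA the order of both receptors by level therefore reversed, and whether the same cells express both was not tested. Per kilobase of exon, Erbb4 was 1.24 to 3.27 times Erbb3 in the WT libraries and 0.0552 to 0.0938 times Erbb3 in the ANKO libraries. Per kilobase, Nrg4 was 9.89 to 12.6 times Erbb4 in WT and 20.9 to 44.2 times in ANKO, since the receptor fell further than the ligand.

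The pathway lists had shares of called genes near the 58.2% of all genes: 62.5% for ERBB signalling, 68.2% for the FGF list, 51.9% for the BMP list and 63.6% for the SLIT and ROBO list. Of 20 other genes of ERBB signalling, 16 could be tested, with 9 higher, 1 lower and a median log2 fold change of 0.65, beside a median of -0.01 over all genes tested. Grb2, an adaptor that links receptors to RAS, rose 2.24-fold. Adam10, a protease that releases membrane-bound ligands, rose 1.65-fold, and Erbb2, the partner receptor without a known ligand, rose 2.53-fold (6.47 ± 0.7004 against 16.5 ± 4.21 CPM, SD, n = 4 each). Egfr rose 2.905-fold and its ligand Areg, which encodes amphiregulin, 12.5-fold, although ANKO1 at 3.10 CPM was below WT2 at 3.81 CPM for Areg. Betacellulin (Btc), a ligand of EGFR and ERBB4, was the 1 gene that fell (2.10-fold, adjusted p = 0.0294). WT3 and WT4 at 4.03 and 5.94 CPM lay near the 3.25 to 4.73 CPM of ANKO, and WT1 and WT2 were higher at 14.3 and 10.2 CPM. With the muscle covariate 3 genes of the list were higher and 2 lower, in a fit that called 4118 of all 16705 genes in place of 9726. Without WT3 alone 3 genes were lower, and without WT2, ANKO2 or ANKO4 none was.

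Fgf21 (ENSMUSG00000030827, chromosome 7, 45613907 to 45615490, minus strand) rose in ANKO and stayed low. Its raw counts were 5, 2, 15 and 32 in WT1 to WT4 and 124, 16, 19 and 13 in ANKO1 to ANKO4. After scaling, WT1 to WT4 had 0.248, 0.0777, 0.458 and 0.728 CPM, against 4.74, 1.84, 1.80 and 1.89 CPM in ANKO1 to ANKO4. Every ANKO library was above every WT library, and ANKO1, the deepest ANKO library, stood apart above the other 3. The rise was 6.60-fold (log2 fold change 2.72 with a standard error of 0.54, adjusted p = 0.00160 by edgeR, exact permutation p = 0.0286). With few counts in WT1 and WT2 the size is uncertain: it was 4.48-fold without ANKO1, 9.74-fold without WT4, 16.9-fold without WT3 and WT4, and 52.5-fold with the muscle covariate, all called.

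Gdf15 (ENSMUSG00000038508, chromosome 8, 70629393 to 70632456, minus strand) had the largest rise of the 9. It was close to absent in WT, at 0.495, 0.233, 2.14 and 1.02 CPM in WT1 to WT4, and was at 19.6, 17.98, 23.0 and 35.1 CPM in ANKO1 to ANKO4. Every ANKO library was far above WT3, the highest of WT. Group means were 0.972 ± 0.843 and 23.9 ± 7.75 CPM (SD, n = 4 each). This was a 23.2-fold rise (log2 fold change 4.54 with a standard error of 0.53, adjusted p = 0.000133 by edgeR, exact permutation p = 0.0286). WT3 held the most Gdf15 of the WT libraries, and the fold was 36.8 without it, 65.4 without WT3 and WT4, 15.002 without WT1 and WT2 and 99.4 with the muscle covariate. Macrophages also express Gdf15, and the macrophage markers Mpeg1 and Adgre1 rose 20.998-fold and 9.97-fold; their part in the rise of Gdf15 was not tested.

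Fgf21 and Gdf15 are both known targets of the integrated stress response, in which the transcription factors ATF4 and CHOP act on C/EBP-ATF response elements, so the 250 bases before their RefSeq starts are shown here with those of Slit2, the third factor that rose (RefSeq, GRCm38.p6, minus strand for the first and second, plus strand for Slit2). They span chr7:45615491-45615740, chr8:70632457-70632706 and chr5:47982905-47983154, and capitals mark a match to a searched motif.
Fgf21: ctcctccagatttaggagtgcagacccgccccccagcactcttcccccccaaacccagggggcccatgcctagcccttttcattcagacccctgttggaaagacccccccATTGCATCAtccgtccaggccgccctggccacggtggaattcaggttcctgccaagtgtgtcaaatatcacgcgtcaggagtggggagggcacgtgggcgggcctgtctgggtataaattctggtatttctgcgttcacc
Gdf15: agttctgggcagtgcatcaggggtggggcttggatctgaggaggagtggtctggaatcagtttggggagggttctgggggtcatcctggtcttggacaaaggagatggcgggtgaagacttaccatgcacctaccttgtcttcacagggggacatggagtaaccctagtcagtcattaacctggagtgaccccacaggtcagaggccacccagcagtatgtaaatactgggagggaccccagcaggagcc
Slit2: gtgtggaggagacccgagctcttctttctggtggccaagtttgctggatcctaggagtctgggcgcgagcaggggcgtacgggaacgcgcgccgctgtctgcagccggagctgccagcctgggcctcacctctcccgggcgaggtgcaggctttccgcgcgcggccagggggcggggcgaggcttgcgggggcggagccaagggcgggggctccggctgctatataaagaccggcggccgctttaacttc
The motifs searched on both strands were TGATGNAAN (C/EBP-ATF response element), TGACGTCA (cAMP response element), the PPAR element (an AGGTCA repeat spaced by 1 base) and TNAAGGTCA (ERR element), none of which overlap in these windows. Promoter windows were found for 7 of the 9 genes (Nrg4, Erbb4, Fgf21, Klb, Bmp8b, Gdf15 and Slit2). That of Nrg4 lies before a start inside the gene, 43219 bases from the gene start given above. Gdf15 has a second window, chr8:70632096-70632345, which is not printed here. It lies before a start 361 bases inside the gene and held 0 matches. The only match in their 8 windows was ATTGCATCA, the first motif read on the other strand, from 140 to 132 bases before the start of Fgf21. Of 32851 promoter windows of the same length, 3.44% hold that motif, 1.55% the cAMP response element, 0.0335% the PPAR element and 1.14% the ERR element. No match says only that these letters are not in the window.

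Of 18 genes tied to GDF15 or to the stress response 17 could be tested, with 6 higher, 5 lower, 6 not called (64.7% called, beside 58.2% of all genes) and a median log2 fold change of -0.08. Chac1, a glutathione-degrading enzyme induced by ATF4 and CHOP, rose 10.1-fold (0.920 ± 0.287 against 8.97 ± 1.86 CPM, SD, n = 4 each). Atf3, a stress-induced transcription factor, rose 2.16-fold and Trp53, the tumour suppressor p53, 1.66-fold. The asparagine synthetase Asns, also an ATF4 target, fell 2.02-fold, Sesn2, a stress-induced inhibitor of mTORC1 signalling, fell 2.98-fold, and Ppara, the nuclear receptor that drives Fgf21 in liver, fell 4.65-fold from 583 ± 37.9 to 125 ± 42.8 CPM. Atf4 itself fell from 212 ± 52.2 to 139 ± 7.27 CPM (adjusted p = 0.00866). Gfral, the GDF15 receptor, had 0 counts in every library, which allows up to 0.0683 CPM in WT4, the deepest library, and up to 0.437 CPM in ANKO4, the shallowest.

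Klb (ENSMUSG00000029195, chromosome 5, 65348386 to 65384003, plus strand), the FGF21 coreceptor, was second per kilobase in WT. It was at 102, 95.0, 79.7 and 74.5 CPM in WT1 to WT4 and at 74.9, 70.6, 72.1 and 51.9 CPM in ANKO1 to ANKO4. WT4 and ANKO1 overlapped, and ANKO4 was the lowest. The fall was 1.30-fold (log2 fold change -0.38 with a standard error of 0.14, adjusted p = 0.0389 by edgeR), and the exact permutation test gave p = 0.0571. The call was lost without WT1 (adjusted p = 0.0712), WT2 (0.0790), ANKO2 (0.0555), ANKO3 (0.0505) or ANKO4 (0.0662), without WT1 and WT2 together (0.216), with upper-quartile scaling (0.0909) and without scaling (0.196). Over the 22 alternatives the adjusted p ran from 0.0125 to 0.216.

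Fgfr1 (ENSMUSG00000031565, chromosome 8, 25513654 to 25575714, plus strand), the receptor that pairs with KLB, was level in WT at 95.5, 96.0, 98.2 and 99.5 CPM. In ANKO it was at 91.1, 85.2, 115 and 117 CPM, with 2 libraries below and 2 above every WT library. The means were 97.3 ± 1.85 and 102 ± 16.3 CPM (SD, n = 4 each), and the difference was within the spread of the ANKO libraries (log2 fold change 0.07 with a standard error of 0.11, adjusted p = 0.632 by edgeR, exact permutation p = 0.629). The ratio of Klb to Fgfr1 per kilobase was 1.76 to 2.51 in WT and 1.04 to 1.94 in ANKO, which overlap.

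Of 25 other FGF pathway genes 22 could be tested, with 9 higher, 6 lower and a median log2 fold change of 0.29. Among the ligands, Fgf10 rose 6.74-fold from 4.49 ± 1.13 to 30.4 ± 4.67 CPM and Fgf7 8.23-fold from 0.763 ± 0.228 to 6.33 ± 1.995 CPM; both are paracrine factors of mesenchymal cells that act on FGFR2. Fgf2 rose 3.05-fold and Fgf9 fell 4.62-fold. Fgfr2 rose 3.05-fold, and Fap, which encodes a protease that inactivates human FGF21, rose 2.36-fold. The feedback inhibitors of ERK signalling Spry4 and Dusp6 fell 3.36-fold and 2.50-fold, from 61.7 ± 17.6 to 18.3 ± 2.44 CPM and from 156 ± 37.2 to 62.2 ± 14.2 CPM. The fibroblast and progenitor markers Pdgfra and Lum rose 2.56-fold and 4.34-fold, and their part in the rise of the FGF ligands was not tested.

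Bmp8b (ENSMUSG00000002384, chromosome 4, 123105165 to 123132099, plus strand) was not called and varied widely within each genotype. It was at 1.24 and 2.37 CPM in WT1 and WT2 and at 11.9 and 12.2 CPM in WT3 and WT4. In ANKO1 to ANKO4 it was at 6.54, 11.5, 3.499 and 2.62 CPM. The 4 ANKO libraries all fell between the WT extremes. The means were 6.93 ± 5.93 and 6.05 ± 4.02 CPM (SD, n = 4 each), within the spread of both groups (log2 fold change -0.21 with a standard error of 0.77, adjusted p = 0.837 by edgeR, exact permutation p = 0.8286). Brown adipocyte markers, taken as a sum, varied in the same libraries. Their summed CPM was 9575 in WT1, 11082 in WT2, 17750 in WT3 and 16655 in WT4, and 4636, 4973, 3417 and 1881 in ANKO1 to ANKO4, so WT3 and WT4 were the higher pair and the ANKO libraries had the same order by either measure. Across genotypes the order differed, since ANKO2 had more Bmp8b than WT1 with a lower marker sum. In WT1 to WT4 Ucp1 alone gave 3369, 4170, 8829 and 7430 CPM of this sum, and single markers differed. Pdk4 was also highest in WT3 and WT4, but in ANKO it was higher in ANKO3 (1027 CPM) than in ANKO1 (878 CPM). Prdm16 was highest in WT2, at 70.3 CPM, against 51.4 and 57.6 CPM in WT3 and WT4. The part of brown adipocyte content in these levels was not tested.

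**Figure D2:**
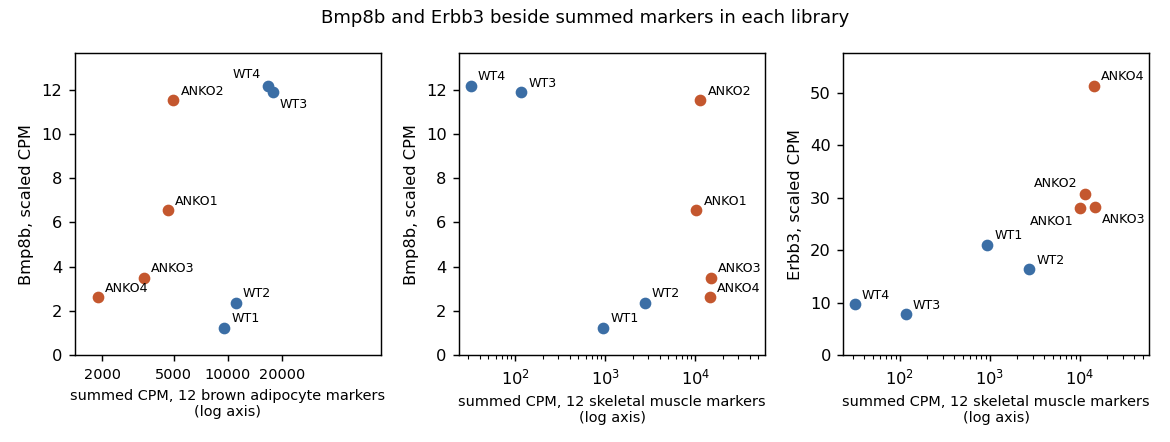
Scaled CPM of Bmp8b or Erbb3 (vertical axes) against the summed scaled CPM of the 12 brown adipocyte or 12 skeletal muscle markers (horizontal log axes; blue WT, orange ANKO), 1 labelled point per library. Bmp8b is high in WT3 and WT4, which have the least muscle RNA, and Erbb3 is lowest there. ANKO2, with a muscle sum of 11360 CPM, has Bmp8b at 11.5 CPM, near the level of WT3 and WT4.

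The sign of the Bmp8b difference depended on the libraries and on the model used. Without WT3 and WT4 it was higher in ANKO (log2 fold change 1.72, adjusted p = 0.0352), with the muscle covariate it was higher as well (2.93, adjusted p = 0.0481), and without WT1 and WT2 it was lower but not called (-1.004, adjusted p = 0.0692). Bmp8b has a close relative, Bmp8a, which was read at 0.144 ± 0.0557 and 0.249 ± 0.118 CPM and had too few counts to be tested, and reads could be split between such copies. Its exons also share 133 bases with Ppie on the opposite strand.

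In the wider BMP list of 31 genes 27 could be tested, with 8 higher, 6 lower and a median log2 fold change of -0.10. Bmp1, a protease that processes procollagen and not a BMP ligand, rose 2.55-fold, Bmp3, which antagonises BMP signalling, rose 5.01-fold, and Bmp7, a ligand that promotes brown adipocyte formation, rose 4.10-fold from 0.624 ± 0.285 to 2.75 ± 0.819 CPM. Acvr1c, the receptor ALK7 of mature adipocytes, fell 3.60-fold from 298 ± 41.7 to 82.7 ± 6.22 CPM. The BMP target Id1 fell 2.04-fold and the type II receptor Bmpr2 1.35-fold. With the muscle covariate 3 genes of the list were higher and 2 lower, beside 4118 of all 16705 genes called in that fit.

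Slit2 (ENSMUSG00000031558, chromosome 5, 47983155 to 48306282, plus strand) rose with little spread in ANKO. It was at 2.48, 3.88, 1.83 and 2.66 CPM in WT1 to WT4 and at 19.2, 18.6, 21.4 and 22.3 CPM in ANKO1 to ANKO4. The lowest ANKO library was far above the highest WT library, and the coefficient of variation in ANKO was 8.72%. Group means were 2.71 ± 0.858 and 20.3 ± 1.77 CPM (SD, n = 4 each). This was a 7.50-fold rise (log2 fold change 2.91 with a standard error of 0.21, adjusted p = 2.62e-06 by edgeR, exact permutation p = 0.0286). The log2 fold change was 2.38 with the muscle covariate and at most 3.13 over the 22 alternatives, all called. Over the 12 fibroblast and progenitor markers the median log2 fold change was 1.57, and their part in the rise of Slit2 was not tested.

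Of 11 other genes of the SLIT and ROBO pathway all were tested, with 7 higher, 0 lower and a median log2 fold change of 1.48. The paralog Slit3 rose 4.07-fold from 19.1 ± 1.35 to 77.7 ± 11.96 CPM and was the more abundant of both in each group. The receptor Robo1 rose 3.39-fold from 2.52 ± 0.101 to 8.64 ± 2.32 CPM. Gpc1, a glypican that binds SLIT proteins and FGFs at the cell surface, rose 6.11-fold. Robo4, the endothelial member of the receptor family, was at 47.6 ± 3.59 and 44.0 ± 1.98 CPM and was not called (adjusted p = 0.267). With the muscle covariate 6 of the 11 were higher and 0 lower, beside 4118 of all 16705 genes called in that fit.

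**Figure D3:**
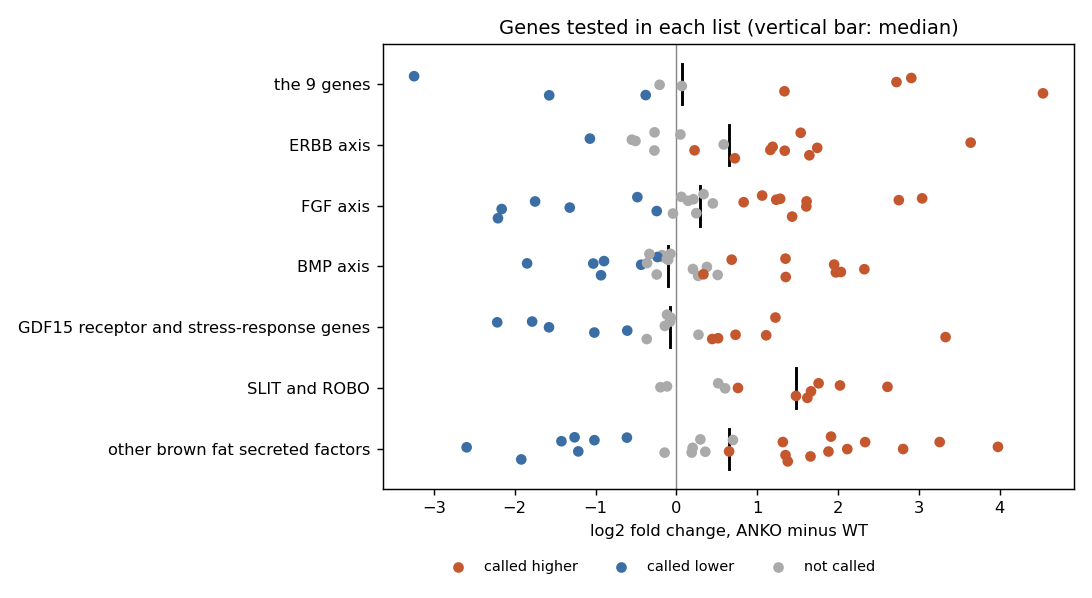
Log2 fold change, ANKO minus WT (horizontal axis), of every gene tested among the 9 genes and in each pathway list, coloured by its call; vertical bars are the medians. The SLIT and ROBO list has 7 genes higher and 0 lower, and each of the other lists has calls in both directions.

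Per kilobase of exon the order of the 9 genes changed between the genotypes. In WT Nrg4 led at 46.2 ± 4.8005 scaled RPKM (CPM per kilobase of exon), followed by Klb at 25.4 ± 3.75, Fgfr1 at 11.98 ± 0.228, Erbb4 at 4.10 ± 0.393 and Erbb3 at 2.28 ± 1.02 scaled RPKM. Bmp8b, Gdf15, Fgf21 and Slit2 followed at 1.79 ± 1.53, 0.525 ± 0.455, 0.406 ± 0.302 and 0.180 ± 0.0569 scaled RPKM. The first 4 were separate from each other in every WT library, whereas each neighbouring pair from Erbb3 down overlapped. In ANKO Klb at 19.5 ± 3.03, Nrg4 at 15.5 ± 4.22, Gdf15 at 12.9 ± 4.19 and Fgfr1 at 12.6 ± 2.001 scaled RPKM overlapped as neighbours, and Gdf15 moved from rank 7 to rank 3. Erbb3 at 5.75 ± 1.88 overlapped Fgf21 at 2.76 ± 1.56 scaled RPKM, and Bmp8b at 1.56 ± 1.04 overlapped Slit2 at 1.35 ± 0.118 scaled RPKM. Erbb4 fell from rank 4 to the last, at 0.434 ± 0.0516 scaled RPKM.

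**Figure D4:**
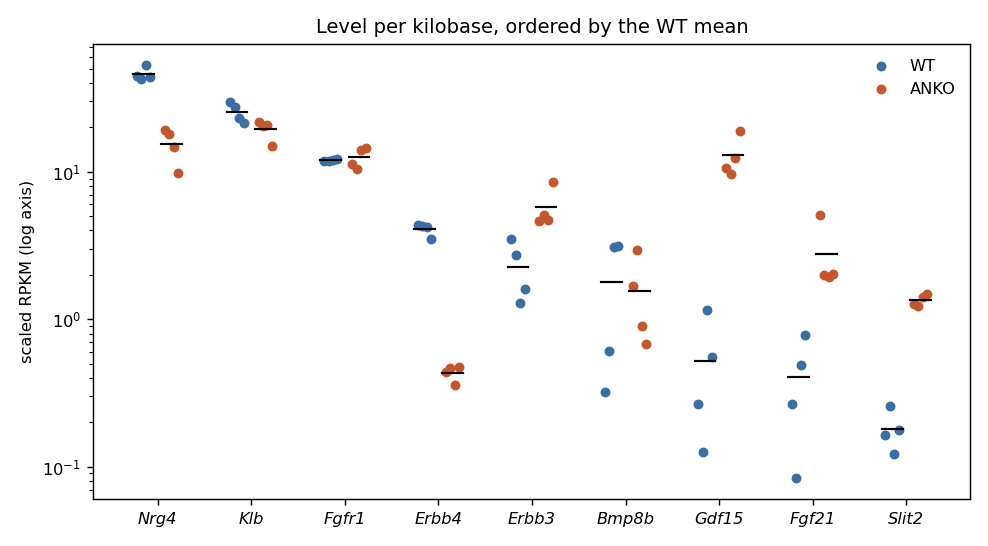
Scaled RPKM (log axis) of the 9 genes in the 4 WT and 4 ANKO libraries, ordered by the WT mean; points are libraries and short lines are group means. Gdf15 in ANKO lies among Nrg4, Klb and Fgfr1, and Erbb4 has the lowest mean of the 9 genes in ANKO.

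Among 10782 genes whose mean reached 5 CPM, the 2 whose log2 CPM over the 8 libraries had the highest Pearson r with each gene were listed as a description. They were Rpe and C1qtnf12 for Nrg4 (both r = 0.998), Bri3bp and Tesk1 for Erbb4 (0.999 and 0.997), and Pias3 and Zfp950 for Erbb3 (both 0.994). For the ligands that rose they were Sumf1 and Zfp64 for Fgf21 (0.973 and 0.971), Il17ra and Pld1 for Gdf15 (0.993 and 0.992), and Pdlim7 and Ppm1j for Slit2 (0.999 and 0.997). Klb went with Cspg4 and Tcf15 (0.993 and 0.979), Fgfr1 with Pkd2 and Hspg2 (0.978 and 0.937), and Bmp8b with Lrrc59 and Gnl3l (0.989 and 0.984). Genotype, depth and muscle marker level all differed among these 8 libraries, and their part in the r values was not tested.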

How the data were processed

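RNA of 8 libraries, 1 per mouse, was aligned with STAR 2.0.4b and counted with featureCounts 1.45 of Subread with build GRCm38 (source: the submitters' processing notes). Which annotation, strand setting and multi-mapping rule applied was not stated there. Per the file headers, the authors deposited a read count, a CPM and an RPKM per gene; the deposited CPM and RPKM follow from the count, its total and the gene length to within 1e-09. Only counts were tested. Symbols came from GENCODE M21 by gene ID (40340 of 41388 genes matched), and 355 rRNA rows (2.83% to 3.53% of counts in WT, 0.801% to 1.13% in ANKO) were left out. Groups were taken from the titles. The design text names 4 control and 4 ANKO mice, so replicates are animals.

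edgeR 4.0.16 in R 4.3.3 was used with filterByExpr, TMM scaling and a robust quasi-likelihood fit without covariates, adjusted by Benjamini-Hochberg over 16705 genes (biological coefficient of variation 20.6%). Standard errors came from the F statistic. CPM and RPKM printed here were recomputed with the scaled library sizes; RPKM depends on the annotated exons. Log2 CPM for permutation tests and r used a prior count of 2. The tests were tested on simulated data. Alternatives used limma 3.58.1 and DESeq2 1.42.0, among others. Figures were drawn with matplotlib 3.10.9.

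The members, lists and tests were chosen with earlier results of these data known. Named genes are Nampt, the 9 members, up to 3 called genes with the smallest p in each direction per pathway list, the 2 such genes and the first gene of each marker list, and the 2 genes most alike to each member. Some genes that this rule names are not reported here. Egfr, Areg, Atf4, Gfral, Fgfr2, Fap, Bmp8a, Robo4, Fbxo22 and Ppie were named after their values were seen.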

Additional observations from a re-analysis of the deposited data

Results flagged for a closer look

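In 3 of 18 groups of 4 libraries 1 library stood apart by Dixon's gap test at its 95% level, which chance gives in about 1 of 20 groups. Erbb3 was at 51.4 CPM in ANKO4, against 28.01 to 30.7 CPM in the other ANKO libraries. Without ANKO4 its log2 fold change was 1.09, from 1.34, and it was still called. Erbb4 was at 43.4 CPM in WT4, against 52.3 to 53.5 CPM in the other WT libraries. Fgf21 was at 4.74 CPM in ANKO1, against 1.80 to 1.89 CPM in the other ANKO libraries, and without ANKO1 its log2 fold change was 2.16, from 2.72.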

How the results depend on the processing

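Over 22 alternatives, 1 of them (without WT1 and WT2) chosen after seeing the data, Nrg4, Erbb4, Fgf21, Gdf15 and Slit2 kept their direction and call in all 22, Erbb3 lost its call in 1 and Klb in 8. The count of called members ran from 6 to 8 (6 to 7 with 1 library left out). With the muscle covariate it was 7 again, but Bmp8b was in and Erbb3 out, and 4118 of all genes were called in place of 9726, 46 pathway list genes in place of 76 and 51 marker genes in place of 85. The log2 fold change of Bmp8b, not called at -0.21, became positive with limma-voom (0.026), the replicate block (0.20), the muscle covariate (2.93) and without WT3 and WT4 (1.72), and ran from -0.67 to 0.20 with 1 library left out (0.16 without WT3, 0.20 without WT4, 0.00025 without ANKO4). That of Fgfr1, not called at 0.07, ran from -0.01 to 0.14 with 1 library left out (-0.0077 without ANKO4). The causes of these shifts were not tested. Library totals without scaling moved the median log2 fold change of all genes from -0.01 to 0.17. Replicate numbers did not pair the libraries (correlations of deviations 0.11, -0.01, 0.07 and -0.05; not every library matched its own number best), and the replicate block, with 9239 genes called, changed no member's call. Depth limits Fgf21 most, with 2 to 32 counts in WT.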

Other observations

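Of 27 other genes listed for brown fat secretion, not all of them secreted factors, 25 were tested. Of these 12 were higher and 7 lower (76% called, beside 58.2% of all genes), with a median log2 fold change of 0.65. Clstn3, whose short adipocyte form works with S100b in sympathetic innervation of brown fat, fell 6.04-fold from 495 ± 62.3 to 81.8 ± 28.7 CPM (SD, n = 4 each), and S100b fell 3.78-fold from 67.8 ± 9.39 to 17.9 ± 3.96 CPM. Vegfb, a growth factor of the VEGF family, fell 2.32-fold. Pltp, a phospholipid transfer protein of plasma, rose 3.68-fold from 31.1 ± 3.98 to 115 ± 21.9 CPM, Fstl1, a secreted glycoprotein of mesenchymal cells, rose 2.49-fold, and the complement gene C1qa, which macrophages make, rose 6.99-fold. The muscle growth inhibitor Mstn, named after its values were seen, averaged 0.359 ± 0.549 (WT) and 5.26 ± 1.87 CPM (ANKO), beside the rise of the skeletal muscle markers; their part in it was not tested.

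Marker lists of other cells in the tissue are given beside the 58.2% of all genes that were called. Of 12 genes listed as lymphocyte markers 11 were higher, with Lck up 9.95-fold. The list includes Ptprc (up 11.4-fold), which other leukocytes such as macrophages also express. Of 12 endothelial markers 1 was higher (Vwf, 2.43-fold) and 5 lower (Kdr, 1.96-fold), a share of 50%. Of 12 mural cell markers 6 were higher (Des, 2.98-fold) and 3 lower (Rgs5, 1.93-fold). Skeletal muscle also expresses Des, and the part of muscle RNA in its rise was not tested. Of 12 skeletal muscle markers 9 were called higher, with Ckm averaging 64.9 ± 83.5 (WT) and 1028 ± 231 CPM (ANKO). That count was 0 without WT1, 12 without WT2 and between 2 and 11 without any other single library.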
